A study of Mus musculus with 2 samples.

Results

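The cytosolic ribosomal protein genes encode the proteins of the ribosome that translates nuclear-encoded messenger RNA. They were taken here as every gene with a protein-coding transcript whose symbol is Rpl or Rps followed by a number and at most 1 of the letters a, l or x, together with Rplp0, Rplp1, Rplp2 and Rpsa; symbols holding -ps were left out. The rule found 80 of the 55536 annotated genes, 49 of the large subunit (Rpl) and 31 of the small subunit (Rps). They lay on 19 chromosomes, with 4 on the X chromosome (Rpl10, Rpl36a, Rpl39 and Rps4x). The rule used names and gene classes only, and no measured value.

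The series holds total RNA-seq of mouse neutrophils in 2 libraries, which the labels call biological replicates 1 and 2 of 1 group, so it has no treated or control arm. Both came from adult male virgin mice of strain B6CASTF1/J, aged 59 days, which the labels give as an F1 cross (C57BL/6 female, CAST EiJ male), and the sample text places the cells in the spleen. The input was 300 ng of RNA per library; libraries were strand-aware and reduced in ribosomal RNA, with ERCC synthetic RNAs added. The 2 libraries carry separate biosample labels and the same donor label, and no label states that different animals were used. The spread between libraries may therefore be technical. How the cells were purified was not stated in the labels.

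A ribosome has a large and a small subunit, each a core of ribosomal RNA clothed in proteins that are, for the most part, present in a single copy. The small subunit binds the messenger RNA and holds the decoding centre; the large subunit joins amino acids and carries the exit tunnel and the flexible stalk that recruits translation factors. In mammals the messenger RNAs of ribosomal proteins share a start with a run of pyrimidines, the 5′ terminal oligopyrimidine motif, through which LARP1 and the mTOR pathway control their translation. Mammalian genomes also carry very many processed pseudogenes of these genes, made by reverse transcription of the spliced RNA, and reads from a gene and from a near-identical copy are hard to tell apart.

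The start of the RNA is the sequence that defines the family's shared regulation, so the windows that carry it are shown first. RefSeq promoter windows on GRCm38.p6 were found for 60 of the 80 genes, with 72 starts. A C at the annotated start followed by at least 4 C or T bases was present at a start of 13 of the 60 genes (21.7%), against 3.01% of the 27025 genes with a window. The 13 genes were Rpl14, Rpl15, Rpl28, Rpl35, Rpl35a, Rpl38, Rplp2, Rps6, Rps10, Rps15a, Rps18, Rps21 and Rps27. The following 30-base windows hold 15 bases on each side of the start of 7 of them, written 5′ to 3′ on the gene's strand, with the run of pyrimidines from the start in capitals.
Rps6 (chr4:86857353-86857382, minus strand): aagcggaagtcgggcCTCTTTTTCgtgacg
Rps27 (chr3:90213634-90213663, minus strand): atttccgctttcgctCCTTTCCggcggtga
Rpl15 (chr14:18270972-18271001, minus strand): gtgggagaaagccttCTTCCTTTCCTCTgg
Rpl28 (chr7:4792950-4792979, plus strand): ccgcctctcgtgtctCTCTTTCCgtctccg
Rpl35 (chr2:39005117-39005146, minus strand): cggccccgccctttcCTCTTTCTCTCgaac
Rpl38 (chr11:114668565-114668594, plus strand): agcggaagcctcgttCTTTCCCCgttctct
Rplp2 (chr7:141447636-141447665, plus strand): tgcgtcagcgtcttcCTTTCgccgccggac
Rps6 is the small-subunit protein that S6 kinases phosphorylate, Rps27 was the most abundant of the 80 genes by mean level, and Rplp2 is an acidic protein of the stalk. For contrast, the windows of the following genes hold no such run at the annotated start: Rpl3l and Rpl10l, which were at or near 0 in these libraries, and Rps12, the gene that differed most between them.
Rpl3l (chr17:24727811-24727840, plus strand): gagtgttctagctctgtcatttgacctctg
Rpl10l (chr12:66284387-66284416, minus strand): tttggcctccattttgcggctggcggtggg
Rps12 (chr10:23787195-23787224, minus strand): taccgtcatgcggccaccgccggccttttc
The Rps12 window has a run of C and T bases a few positions after the annotated start, so the absence of a match says only that these letters do not stand at that position.

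Other motifs were counted in the same promoter windows. CTTTC between 10 bases before and 20 bases after the start was found in 15 of the 60 genes (25%), against 4.43% of all genes with a window. CCGGAA or its reverse complement TTCCGG, the core bound by ETS factors, occurred anywhere in the 300-base window of 33 genes (55.0%), against 16.7% of all genes and 21.5% of protein-coding genes. The letters TATA between 40 and 20 bases upstream were found in 6 of the 60 genes, against 6.38% of all genes. The first pair of motifs can overlap, and these matches describe letters, not binding sites. The 13 genes with the pyrimidine start had median levels of 285 and 345 TPM (transcripts per 1000000, a level that takes transcript length into account) in replicates 1 and 2. In the 44 other expressed genes with a window the medians were 271 and 302 TPM. The mean levels ranged from 136 to 839 TPM in those 13 genes and from 17.9 to 836 TPM in the others.

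Both libraries were of similar depth, with 18836100 and 18444400 estimated reads in the gene table. All 14 neutrophil markers were at 1 TPM or more in both libraries, from 173 and 144 TPM for Cxcr2 to 23978 and 22470 TPM for S100a9, a subunit of calprotectin. Genes of other cells were also present. The immature granulocyte gene Mpo was at 362 and 460 TPM, 6 of 6 measured genes of that list and 8 of 8 cell cycle genes were at 1 TPM or more, and so were 11 of 11 erythroid, 7 of 8 monocyte and macrophage, 4 of 7 B cell, 1 of 6 T cell and 2 of 4 stromal genes. The 1 TPM threshold thus does not set the neutrophil list apart. Median levels were 1696 and 1777 TPM for the neutrophil markers and 69.1 and 61.3 TPM for the monocyte and macrophage genes. These lists overlapped, with the monocyte gene Ly6c2 at 474 and 468 TPM and the neutrophil marker Ly6g at 316 and 269 TPM. In a bulk sample, fewer cells of a type and less RNA per cell cannot be told apart.

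The ribosomal protein genes took 1.29% (exact Clopper-Pearson 95% interval 1.28 to 1.29) of all reads in replicate 1 and 1.39% (1.39 to 1.40) in replicate 2, a mean of 1.34% ± 0.0748 (SD, n = 2). The intervals cover counting error only. By TPM, which divides by length, they took 2.42% and 2.65% of the total, and 5.17% and 5.63% of the TPM of protein-coding genes. Of the 80 genes, 77 were at 1 TPM or more in both libraries. Over the 80 genes the median level was 283 and 334.0 TPM in replicates 1 and 2 (309 ± 35.8, SD, n = 2), against medians of 13.4 and 13.7 TPM over all protein-coding genes at 1 TPM or more. Of the 22028 protein-coding genes, the 500 highest included 66 of the 80 genes in replicate 1 and 70 in replicate 2, and the 100 highest included 9 and 10.

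Most of the family lay in a narrow band. In each library 65 of the 80 genes were between 100 and 600 TPM, and the quartiles of the 77 expressed genes were 177 and 407 TPM in replicate 1 and 197 and 434 TPM in replicate 2. The upper quartile was 2.30 times the lower, while the highest of the expressed genes was 46.9 times the lowest, by mean TPM. Across the 77 genes the log2 TPM of the libraries correlated with Pearson's r = 0.993 and Spearman's rho = 0.990, a description over genes that share the libraries and the annotation.

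**Figure D1:**
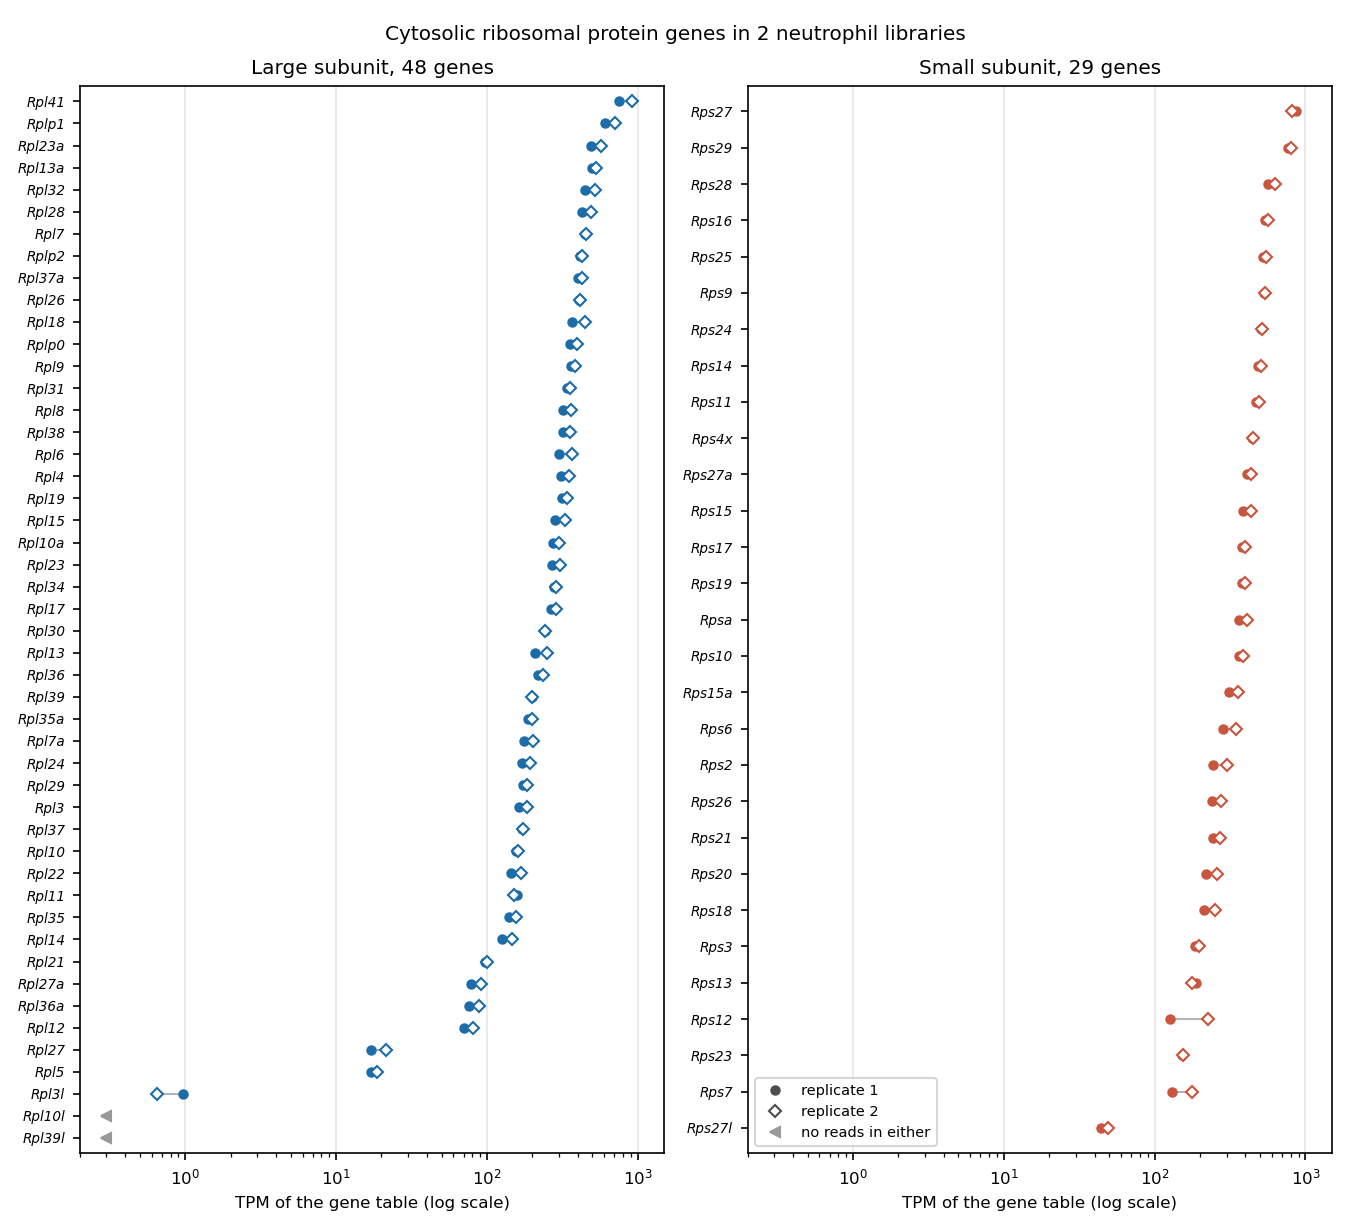
The levels of 77 of the 80 genes are plotted in TPM on a log axis, large subunit on the left and small subunit on the right, with replicate 1 as filled circles and replicate 2 as open diamonds. Most genes lie between 100 and 600 TPM in both libraries, Rpl5 and Rpl27 lie near 20 TPM, Rpl3l lies under 1 TPM, and Rpl10l and Rpl39l had no reads and are drawn as triangles at the left edge.

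The highest levels were found in both subunits and included genes for very short proteins. Rps27 (chr3:90212522-90213651, mm10), a small-subunit protein with a zinc finger, was at 869 and 809 TPM (839 ± 42.4, SD, n = 2). Rpl41 (chr10:128548114-128549305), one of the smallest eukaryotic proteins, was at 751 and 922 TPM (836 ± 121). Rps29, another zinc-binding protein of the small subunit, was at 763 and 805 TPM (784 ± 30.1). The order of these 3 genes was not resolved, since Rps27 was the highest in replicate 1 and Rpl41 in replicate 2. Other high levels were those of the stalk protein Rplp1 at 606 and 709 TPM (658 ± 73.4), and of Rps28, which lies at the mRNA exit, at 566 and 628 TPM (597 ± 44.3). Across the 77 genes, log2 mean TPM and log2 gene length correlated with r = -0.295 and rho = -0.313, over genes whose TPM is itself computed with length.

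The stalk list comprised 4 genes with medians of 383 and 414 TPM. Rplp0, its anchor, was at 354 and 398 TPM; Rplp1 and Rplp2, which form the dimers bound to it, were at 606 and 709 and at 412 and 430 TPM; Rpl12, at the stalk base, was the lowest at 70.5 and 81.3 TPM. Rplp1 was 1.47 and 1.65 times Rplp2 in the 2 libraries, but 0.997 and 1.05 times in the second deposited table. The TPM of Rpl12 and of other genes with expressed copies depended on the table used, as described further on.

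Proteins at the large subunit's functional sites were spread over the band. Rpl5 and Rpl11, which travel with 5S ribosomal RNA and can bind the p53 inhibitor Mdm2, were at 17.0 and 18.8 TPM and at 159 and 152 TPM. The 8 genes of the exit tunnel and its rim had medians of 313 and 345 TPM, from Rpl35 at 140 and 155 TPM to Rpl23a, part of the docking site for the signal recognition particle, at 487 and 567 TPM. The 4 genes near the factor-binding and GTPase site had medians of 233 and 275 TPM, among them Rpl3, which reaches toward the peptidyl transferase centre, at 164 and 183 TPM, and Rpl10, which completes that region late in assembly, at 156 and 162 TPM.

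Among small-subunit genes, the 5 of the mRNA entry and decoding list had medians of 242 and 303 TPM. Rps9 was the highest of them at 528 and 540 TPM, and Rps23, close to the decoding centre, the lowest at 152 and 155 TPM, while Rps2 and Rps3, which line the entry channel, were at 242 and 303 and at 185 and 197 TPM. The 5 genes of the mRNA exit list had medians of 368 and 413 TPM, with Rpsa, also known as the laminin receptor, at 361 and 407 TPM. Rps6 was at 285 and 345 TPM, and Rps27a, which is made as a fusion with ubiquitin, at 407 and 434 TPM. The 18 genes whose human counterparts are mutated in Diamond-Blackfan anaemia had medians of 349 and 370.1 TPM, with Rps19 at 378 and 397 TPM.

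Median levels were 361 and 397 TPM for the 31 small-subunit genes and 266 and 287 TPM for the 49 large-subunit genes. As a difference of medians on the log2(TPM + 1) scale, large minus small was -0.45 ± 0.0188 (SD, n = 2). Members of a subunit are not replicates, and this difference was not tested. The lowest small-subunit gene was Rps27l, and the 5 lowest large-subunit genes were Rpl10l, Rpl39l, Rpl3l, Rpl5 and Rpl27.

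The genes with the lowest levels included paralogs with a restricted expression elsewhere in the body. Rpl10l and Rpl39l, known from the testis, had no reads in either library. A count of 3 reads is about the upper 95% bound for 0 observed reads. It would equal 0.172 and 0.178 TPM for Rpl10l and 0.274 and 0.284 TPM for Rpl39l. Rpl3l, known from heart and skeletal muscle, had 17 and 11 reads (0.96 and 0.65 TPM), so its partner Rpl3 was 171 and 282 times higher by TPM. Rps27l, a p53-responsive paralog, was at 43.8 and 48.8 TPM (46.3 ± 3.58), and Rps27 was 19.9 and 16.6 times higher.

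The first 30 coding bases of these pairs, taken from the GENCODE M21 transcripts, show how far the sequences differ where reads have to be told apart; capitals mark the bases that differ within a pair.
Rpl10 (chrX:74270812-74273135, plus strand): atgggCcgCcgCccCgcCcgGtgttaccgg
Rpl10l (chr12:66283379-66284401, minus strand): atgggTcgTcgTccGgcTcgCtgttaccgg
Rpl39 (chrX:37082520-37085402, minus strand): atgTcttctcacaagacTttcCgAatcaag
Rpl39l (chr16:10170226-10174911, plus strand): atgGcttctcacaagacCttcAgGatcaag
Rpl3 (chr15:80077791-80091868, minus strand): atgtcTcacAggaaAttctcAgcTccCAgg
Rpl3l (chr17:24727820-24736143, plus strand): atgtcCcacCggaaGttctcTgcCccTCgg
Rps27 (chr3:90212522-90213651, minus strand): atgccTctCgcAaAGgatctCCtTcaTccC
Rps27l (chr9:66946086-66949516, plus strand): atgccCctGgcTaGAgatctGTtAcaCccT
Over the whole coding sequence, 84.7% of aligned bases were identical for Rpl10 and Rpl10l, 85.0% for Rpl39 and Rpl39l, 74.4% for Rpl3 and Rpl3l and 75% for Rps27 and Rps27l; the last 2 alignments also held 20 and 63 bases opposite gaps. Coordinates are those of the genes. Their partners Rpl10 and Rpl39, both X-linked, were at 156 and 162 TPM and at 200.4 and 198 TPM.

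Low values of ordinary, single-copy ribosomal proteins stood out. Rpl5 (chr5:107900502-107909005) was at 17.0 and 18.8 TPM (17.9 ± 1.29), and Rpl27 (chr11:101442298-101445529), a large-subunit protein also linked to Diamond-Blackfan anaemia, was at 17.0 and 21.3 TPM (19.2 ± 3.07). Rpl12 at 75.9 ± 7.62, Rpl36a at 82.3 ± 9.36 and Rpl27a at 85.1 ± 8.62 TPM (SD, n = 2 each) also lay below the band. All of these values rest on how reads were divided between the gene and its copies.

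The depositors supplied a gene table and a second transcript table from another estimator, each with estimated reads and TPM, and the 2 tables were compared. TPM also depends on the transcript lengths used, so a difference in TPM need not come from the division of reads alone. TPM was higher in the second table for 63 of the 77 expressed genes, with a median ratio of 1.24. It was at least 2-fold higher for 12 genes (Rpl5, Rpl10, Rpl11, Rpl14, Rpl21, Rpl27, Rpl27a, Rpl31, Rpl36a, Rpl37, Rps12 and Rps23) and at least 2-fold lower for Rpl36. By estimated reads the median ratio was 1.06, with 8 genes at least 2-fold higher and 2 at least 2-fold lower. Of the 12 genes, Rpl11, Rpl14, Rpl21, Rpl31 and Rpl37 had reads ratios from 1.22 to 1.95 only. Rpl27 went from 17.0 and 21.3 TPM to 231 and 266 TPM, Rpl5 from 17.0 and 18.8 to 127 and 120.5 TPM, Rpl10 from 156 and 162 to 619 and 607 TPM, and Rps23 from 152 and 155 to 519.5 and 554 TPM. Rpl36 was at 217 and 235 TPM in the gene table and at 91.7 and 116 TPM in the second. The share of all genes with a higher TPM in the second table, or at least 2-fold apart, was not worked out. Genes outside the family moved as well. The elongation factor Eef1a1 went from 1572 and 1611 to 2150 and 2117 TPM, and S100a9 from 23978 and 22470 to 22122 and 19788 TPM. A rise between the tables is thus not shown to be particular to this family. Across the 77 genes the 2 tables' log2 mean TPM correlated with r = 0.733 and rho = 0.761, over the same reads.

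Sequence identity to other annotated genes was measured from the transcripts. An exact 100-base window was shared with at least 1 other gene by 72 of the 80 genes, and the 8 without one included Rpl22, Rps3, Rps21 and the paralogs Rpl3l, Rpl10l, Rpl39l and Rps27l. The median gene shared 22.5% of its windows, and 16 genes shared at least 50%. In all, 467 other genes shared a window, of which 449 were annotated as pseudogenes and 15 as protein-coding. These genes together held 67603 and 71948 reads in the gene table and 34313 and 36222 in the second table. That equalled 27.96% and 28.1% of the ribosomal protein genes' own reads in the gene table, and 13% in each library in the second.

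For each of the 72 genes the copy with the most reads was aligned to the coding sequence. Of these copies 53 spanned the whole coding sequence and 16 of them held it without a single different base; the median identity was 99.4%. The 16 genes with such a perfect copy were Rpl5, Rpl10, Rpl10a, Rpl12, Rpl27, Rpl27a, Rpl28, Rpl31, Rpl36a, Rpl38, Rpl41, Rps12, Rps16, Rps27, Rps28 and Rps29. In the gene table the copy held more reads than the gene in both libraries for 11 genes, and in the second table for 3 (Rpl5, Rpl35 and Rps7). For 22 genes the copy had at least 10 reads over both libraries in the gene table and under 1 in the second.

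The clearest cases were genes whose copies together took most of the reads in 1 table only. Rpl10-ps3 on chromosome 9, annotated as protein-coding, matches all 642 coding bases of Rpl10. It had 5281 and 5235 reads in the gene table and 0 in the second, while Rpl10 had 2080 and 2066 in the gene table and 7464 and 7378 in the second. Rps23-ps1 on chromosome 3 covers 425 coding bases of Rps23 with no difference. It had 2733 and 3044 reads in the gene table and 0 in the second. Rpl27 had 149 and 180.4 reads in the gene table. Its perfect copy Gm11518 had 753 and 878 there, and the pseudogene Rpl27-ps3, which also shares windows with Rpl27, had the same values. In the second table Gm11518 had 0 reads, Rpl27-ps3 was at 0 TPM, and Rpl27 had 1699 and 1979 reads. Rpl5 differed from these: its copy Gm15500 on chromosome 7 had 4492 and 4513 reads in the gene table, and in the second table it still had 3461 and 3521, more than the 1715 and 1608 of Rpl5 itself.

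Adding the reads of all genes that share a window brought the tables closer together for most genes that had been far apart, but not for each gene. For single genes, reads in the tables were within 1.2-fold for 53 of the 77 genes and at least 2-fold apart for 10; with the sharing genes added, 66 were within 1.2-fold and only Rpl36 remained at least 2-fold apart. The ratio of the second table to the gene table moved from 11.2 to 1.02 for Rpl27, from 3.78 to 1.04 for Rpl5, from 3.60 to 1.04 for Rps23 and from 3.58 to 1.01 for Rpl10. For Rpl36 it moved from 0.257 to 0.355, and for Rplp1 from 0.477 to 0.531, still near 2-fold. For some genes the ratio moved away from 1, as from 0.992 to 0.745 for Rpl13 and from 1.08 to 0.833 for Rpl34. Which table divides the reads correctly was not tested, and the levels of these genes are therefore uncertain. The 2 tables need not bound them, since both left more reads on the copy Gm15500 than on Rpl5 itself.

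**Figure D2:**
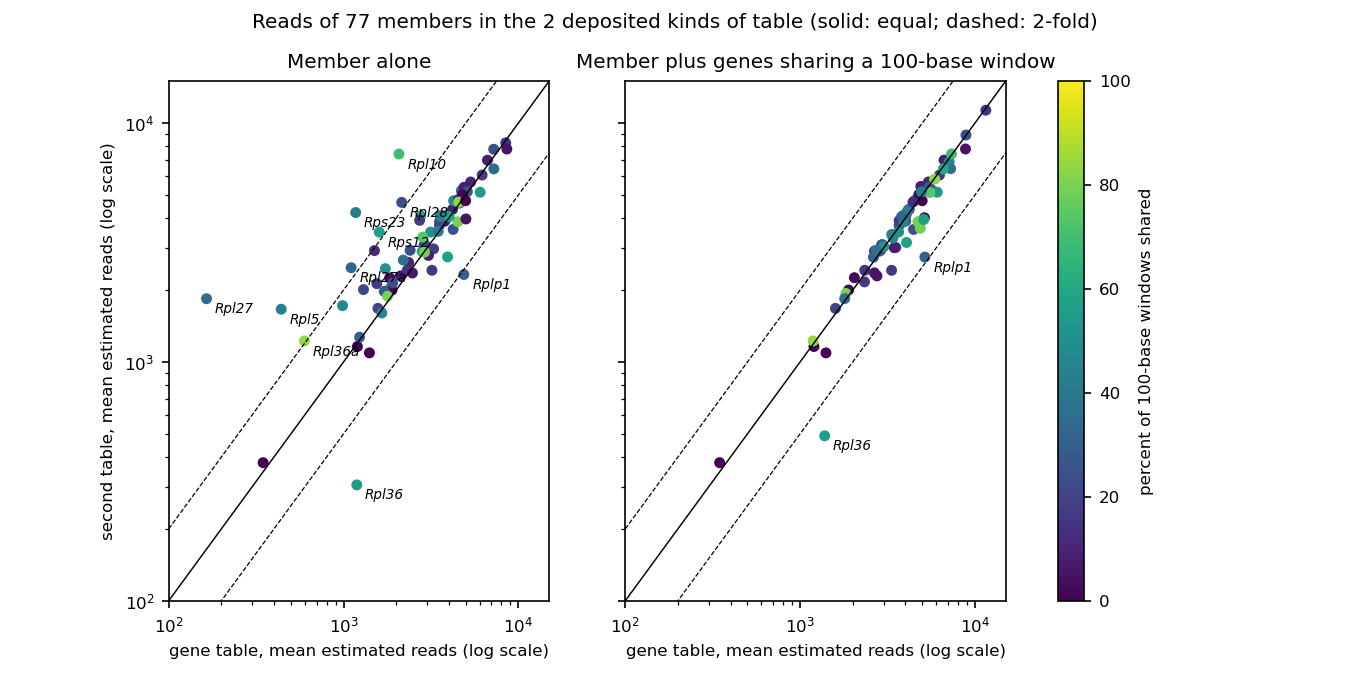
Estimated reads of the 77 expressed genes, as the mean of 2 libraries on log axes, are plotted in the second table against the gene table, for the gene alone on the left and with all genes that share a 100-base window added on the right; colour gives the percent of windows shared. Rpl27, Rpl5, Rpl10, Rps23, Rps12 and others lie above the dashed 2-fold line on the left, and on the right only Rpl36 lies beyond 2-fold.

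The only comparison between samples is of the 2 libraries, which shows how far the family varied within the group. Each gene was compared by a conditional binomial test on reads, exact and two-sided, which covers counting error only, with Benjamini-Hochberg adjustment over 12434 genes with at least 50 reads in sum. None of the 77 ribosomal protein genes tested passed both an adjusted p of 0.05 or less and a 2-fold difference, the rule that called 2.25% of all genes tested. The exact binomial test gave 53 of them an unadjusted p of at most 0.05, a threshold at which the share of all genes was not worked out. By adjusted p alone, 40 were higher in replicate 2 (background 11.8% of genes tested) and 2 were lower, among them Rps27 (background 12.9%). The genes had a median of 5829 reads in sum against 761 for all genes tested, so smaller differences passed the test.

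The differences were small and mostly in the same direction. Replicate 2 was above replicate 1 for 70 of the 77 genes (90.9%, against 49.9% of all genes tested), with a median log2 ratio of 0.12 against a median of 0.00 over all genes. The ratio was within 1.2-fold for 69 genes (89.6%, against 74.1%). Large-subunit genes had a median log2 ratio of 0.14 (41 of 46 above 0) and small-subunit genes 0.09 (29 of 31 above 0). When the libraries were scaled by the ERCC synthetic RNAs in place of the total, the median of the family was 0.04, with 49 genes above 0 and 28 below, and that of all genes -0.08. In edgeR's test, a shared dispersion between libraries took the place of counting error alone. That dispersion was estimated from the same 2 libraries taken as 1 group, so it holds the differences under test. The test is therefore no independent check of small differences. It covered 13667 genes after its own expression filter, 78 of this family among them. It gave 0 of the 78 an adjusted p of at most 0.05, against 166 of all genes, and the lowest adjusted p of the 78 was 0.139 (edgeR). Of the 78, 1 had an unadjusted p of at most 0.05 in edgeR's test. The share of all genes at that threshold was not worked out.

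**Figure D3:**
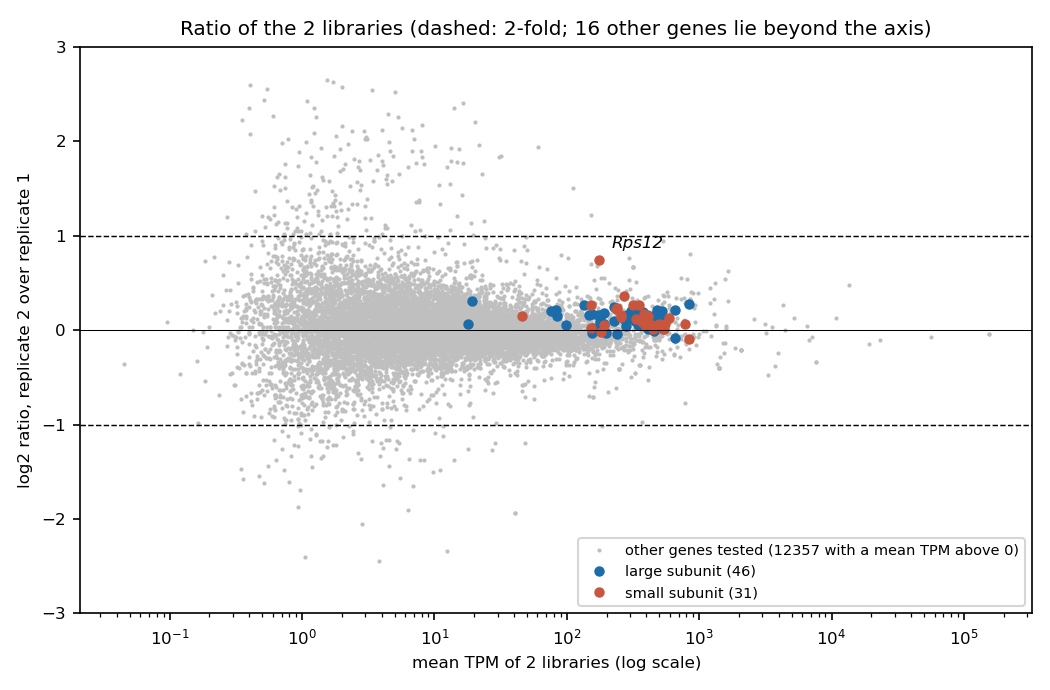
The log2 ratio of replicate 2 over replicate 1 is plotted against mean TPM (log axis) for the 46 large-subunit and 31 small-subunit genes tested and for 12357 other genes in grey; dashed lines mark 2-fold. The ribosomal protein genes lie just above 0 in the main, with Rps12 the farthest at 0.74 and none beyond 2-fold.

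Rps12 (chr10:23785183-23787275), a small-subunit protein, was the one gene past 1.5-fold (background 4.98%). It had 1217 reads in replicate 1 and 1981 in replicate 2 (126 and 226 TPM), a log2 ratio of 0.74 with an interval of the ratio of 1.55 to 1.79 (exact binomial test, adjusted p = 4.29e-44). Its perfect copy Rps12-ps3 on chromosome 19 had 3098 and 2732 reads, fewer in replicate 2. With all genes that share a window added, reads were 4868 and 5311 and the log2 ratio was 0.16; in the second table Rps12 alone had 3354 and 3638 reads, also a log2 ratio of 0.16. The 1.5-fold difference of Rps12 was therefore seen for the gene alone in the gene table, and neither with the sharing genes added nor in the second table.

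Other genes far from 1 were Rps2, Rpl27 and Rpl41 on the higher side. Rps2, at the mRNA entry, was at 242 and 303 TPM, with a log2 ratio of 0.36 (ratio interval 1.23 to 1.35; exact binomial test, adjusted p = 1.41e-24). Rpl41 had a log2 ratio of 0.28 (1.17 to 1.26; exact test, adjusted p = 1.52e-21). Rpl27 had 0.31 on few reads, with an interval of 0.992 to 1.55 that includes 1 (exact test, adjusted p = 0.153). On the lower side, Rps27 had -0.10 (0.894 to 0.977; exact test, adjusted p = 0.0154). Rpl30, Rpl39 and Rpl11 were at -0.04, -0.03 and -0.03, with adjusted p between 0.588 and 0.737 in the exact test. The log2 ratios of the 77 genes in the 2 tables correlated with r = 0.714 and rho = 0.876, over the same reads.

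By role, the median log2 ratios lay between 0.02 and 0.20. The stalk list had a median log2 ratio of 0.20 (4 of 4 above 0), the mRNA exit list 0.15 (5 of 5), the factor-binding list 0.11 (4 of 4), the exit tunnel list 0.10 (7 of 8), the mRNA entry and decoding list 0.06 (5 of 5), the anaemia list 0.08 (16 of 18), the X-linked genes 0.02 (3 of 4) and the 5S particle pair 0.02. Differences between these lists were not tested. Rps6, whose protein is a target of S6 kinase, had 0.26 (285 and 345 TPM; exact test, adjusted p = 1.33e-16), and Rplp0, often used as a reference gene, had 0.19 (354 and 398 TPM; exact test, adjusted p = 7.95e-16).

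Markers of cell types moved between the libraries too. The 6 immature granulocyte genes were all higher in replicate 2 by adjusted p (exact binomial test), with summed levels of 930 and 1205 TPM, and so were 6 of the 8 cell cycle genes (summed 517 and 622 TPM). Of the 14 neutrophil markers, 10 were lower in replicate 2 and 3 higher, with summed levels of 68389 and 64792 TPM. Past 2-fold as well, 7 of 11 erythroid genes and 2 of 4 stromal genes were higher in replicate 2 and 5 of 7 B cell genes lower; the summed levels were 1256 and 1209 TPM, 39.5 and 146 TPM, and 34.0 and 19.4 TPM. The most abundant erythroid genes, the globins, did not follow: Hbb-bs (399.6 and 315 TPM) and Hba-a2 (284 and 188 TPM) were lower in replicate 2 by adjusted p and Hba-a1 (527 and 569.7 TPM) higher. The monocyte and macrophage genes summed to 1073 and 999 TPM and the T cell genes to 47.7 and 39.95 TPM. Each defining marker of these lists had reads in at least 1 library. The part of these cells in the difference of the ribosomal protein genes was not tested.

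Many of these genes have annotated transcripts that are not protein-coding, and the estimated levels were divided among them. The 80 genes had 484 transcripts, 226 of them protein-coding, 172 with a retained intron, 24 marked for nonsense-mediated decay and 62 processed transcripts. Transcripts outside the protein-coding class took 20.4% ± 0.358 (SD, n = 2) of the family's TPM, and the protein-coding class took 79.9% and 79.4%, against 80.5% and 81.0% in other coding genes. Retained-intron transcripts took 11.5% and 11.6% (other coding genes 11.6% and 11.4%), and nonsense-mediated decay transcripts 4.58% and 4.23% (other coding genes 2.72% and 2.61%). In the second table the protein-coding class took 69.3% and 69.0% of the family's TPM, against 75.7% and 76.5% in other coding genes. The order of the nonsense-mediated decay shares turned there, with 2.40% and 2.5% in the family and 3.34% and 3.17% in other coding genes.

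The division was uneven over genes. In 46 of the 77 expressed genes less than 10% of TPM lay outside protein-coding transcripts, and in 16 it was more than 50%. Rps16, at 540.0 and 566 TPM, had 98.9% outside: its coding model of 1109 bases was at 4.00 and 7.87 TPM, and a retained-intron model of 518 bases was at 369 and 382 TPM. That model holds 88.7% of the 31-base windows of the coding sequence. Rps20 had 97.3% outside, with a coding model of 3706 bases at 5.49 and 7.26 TPM and a retained-intron model of 582 bases, holding 99.4% of the coding windows, at 202 and 219 TPM. Next came Rps26 (96.8%), Rpl35 (96.7%) and Rps18 (93.2%). Rps26 belongs to the mRNA exit list, Rpl35 to the tunnel rim and Rps18 to the head of the small subunit.

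**Figure D4:**
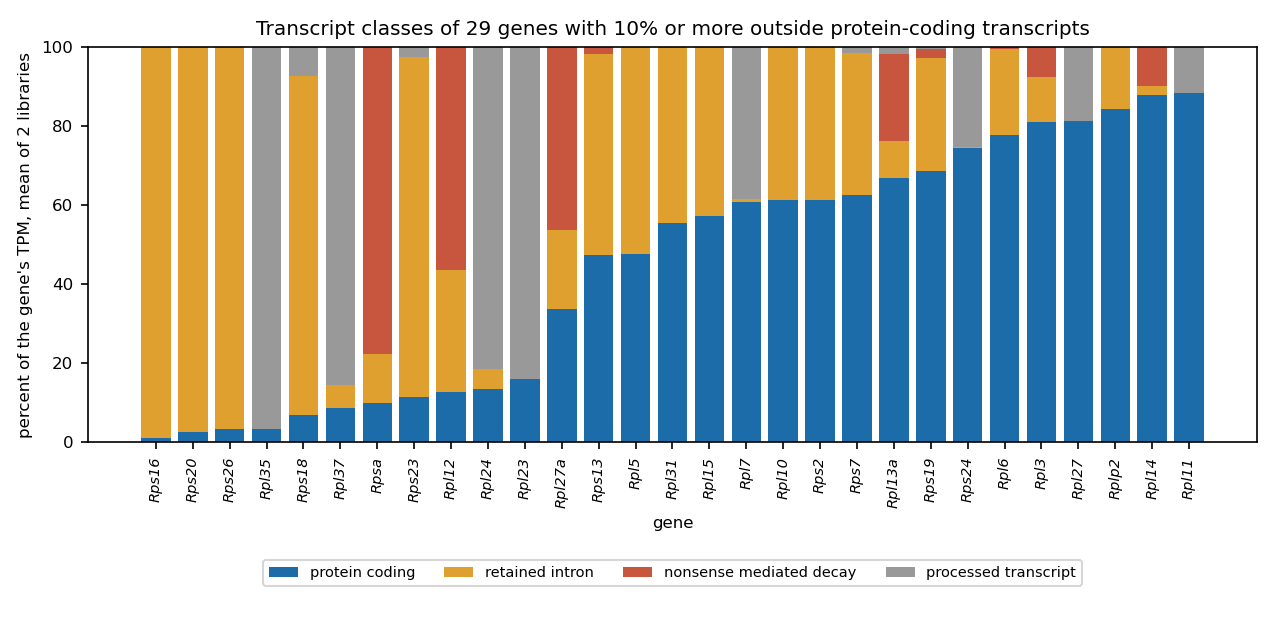
Stacked bars give the percent of each gene's TPM, as the mean of 2 libraries, in protein-coding, retained-intron, nonsense-mediated decay and processed transcripts, for 29 genes with at least 10% outside the protein-coding class. Rps16, Rps20, Rps26 and Rpl35 have under 4% of their TPM in the protein-coding class, and 10 further genes have under 50%.

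Of the reads outside the protein-coding class, 65.1% and 65.9% in replicates 1 and 2 lay in transcripts holding at least 80% of the gene's coding windows. Just 3 of the 258 transcripts outside that class hold a whole coding sequence. The tables also differed by gene. For Rps18 the second table put 29.3% outside the coding class against 93.2%, and for Rpsa 38.3% against 90.1% in the gene table; 22 genes were above 50% in the second table and 9 in both. Rps24 was divided differently in the 2 libraries, with 4.15% outside in replicate 1 and 46.5% in replicate 2, while its total stayed at 505 and 517 TPM. Its coding transcript Rps24-201 went from 409.8 to 198 TPM and its processed transcript Rps24-203, of similar length, from 16.5 to 237 TPM. In the second table Rps24-201 was at 0 in both libraries and Rps24-203 at 107 and 147 TPM. Whether these shares reflect RNA in the cells or the choice of model by the estimator was not tested.

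Genes of the same pathway, outside the name rule, gave a frame for these levels. Ribosomal components whose symbols fall outside the rule included Fau, which encodes Rps30 fused to a ubiquitin-like protein, at 749 and 805 TPM, Rps3a1 at 267 and 286 TPM and Rack1 at 257 and 281 TPM. The 8 genes of that list had medians of 183 and 198 TPM, and all 8 were above 0 between libraries (median log2 ratio 0.09; 4 by adjusted p in the exact test). Of 22 other genes whose RNAs carry the oligopyrimidine start, 12 were higher in replicate 2 by adjusted p and none lower in the exact binomial test (median log2 ratio 0.10), with medians of 69.4 and 74.6 TPM. The elongation factor Eef1a1 led them at 1572 and 1611 TPM, followed by Tpt1 at 1061 and 1075 TPM.

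Regulators and the mitochondrial counterpart were at lower levels. The 15 regulators had medians of 19.5 and 17.4 TPM, with Mtor at 14.1 and 13.8 TPM and the oligopyrimidine-binding Larp1 at 26.2 and 30.3 TPM, and 2 were higher and 1 lower in replicate 2 by adjusted p in the exact test. Of the 12 elongation and termination genes, 10 were at 1 TPM or more and 6 of the 11 tested were higher, none lower (exact test). The 78 mitochondrial ribosomal protein genes had medians of 10.4 and 12.04 TPM, with a median log2 ratio of 0.07 and 49 of 77 tested above 0. The cytosolic median exceeded the mitochondrial by 4.66 ± 0.0289 (SD, n = 2) on the log2(TPM + 1) scale.

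**Figure D5:**
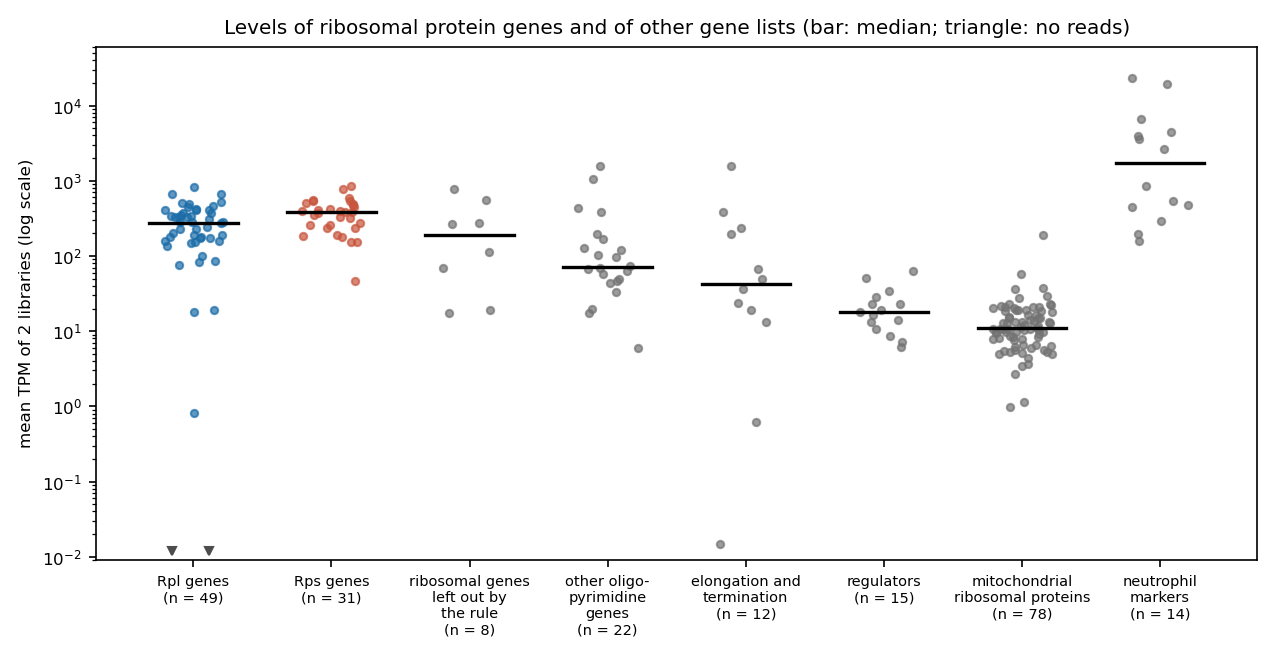
Mean TPM of 2 libraries (log axis) is plotted for the Rpl and Rps genes and for the other lists, 1 point a gene, with a bar at each list's median and triangles for genes without reads. The medians of the Rpl and Rps genes lie above those of the regulators and of the 78 mitochondrial ribosomal protein genes and below that of the 14 neutrophil markers, but the lists overlap, with Rpl10l, Rpl39l, Rpl3l, Rpl5, Rpl27 and Rps27l among the low members.

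Introns of ribosomal protein genes host small nucleolar RNAs, which guide the modification of ribosomal RNA. The annotation places 56 such genes inside 29 of the 80 genes. Of these, 33 are at most 100 bases long and have a TPM of 0 by the way effective length was computed, and 11 of the others had reads in both libraries. Gm26448, 203 bases long inside Rpsa, was at 501 and 518 TPM, above its host at 361 and 407 TPM in the gene table. By reads it was below its host, with 977 and 975 against 6891 and 7555 for Rpsa. The effective length that TPM divides by is the length less 100 bases, which raises TPM most for short RNAs. Snord15b and Snord15a inside Rps3 were at 158 and 199 TPM and at 96.8 and 82.1 TPM. In the second table each of the 56 was at 0 TPM in both libraries. How well such short RNAs were recovered in library preparation was not measured here.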

How the data were processed

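Total RNA-seq of 2 neutrophil libraries was used, with the authors' gene and transcript tables as deposited. Estimated counts (expected counts per gene, not whole numbers) and TPM are the authors' values per the file headers; the genome build mm10 and annotation M21 are named per the deposited file lists. The aligner and estimators were not given in the sources used here. The effect of aligning F1 hybrid reads to the mm10 reference was not tested. A second deposited transcript table gave estimated counts and TPM per transcript, which were summed per gene. Expected counts were rounded to whole numbers for the tests.

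The members and lists were chosen with earlier results of these data known. All members may be named; full values are given for the 6 highest and 6 lowest by mean TPM, paralogs with their partners, the 5 highest and 5 lowest ratios between libraries, and the 5 highest shares outside protein-coding transcripts. Single values of some genes are not reported here; they remain in all counts and medians. The 12434 genes with 50 or more reads in sum were compared by an exact two-sided conditional binomial test with Benjamini-Hochberg adjustment, scaled by the reads of annotated genes other than rRNA genes (18060600 and 17609100), with 0.5 added to counts for ratios; a call needed an adjusted p of at most 0.05 and 2-fold. On simulated data for that comparison (12434 genes), 50 of 50 genes changed 2.5-fold were called, and so were 8 of 12234 unchanged genes. The simulated counts held counting error only, and the changed genes were drawn from those with more reads. The simulation therefore does not show how the test behaves with further spread between libraries.

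Copies were found as other GENCODE M21 genes sharing an exact 100-base window, and coding sequences were compared by base identity because protein sequences were not used here; Rps4l was not a protein-coding gene in this annotation. Promoter windows came from RefSeq (GRCm38.p6). Alternatives were other scalings, edgeR with a common dispersion, DESeq2 size factors, the second table, pseudocounts, filters and each library alone. Software was Python 3.11.15, numpy 2.4.6, pandas 2.3.3, scipy 1.17.1, Biopython 1.88, matplotlib 3.10.9, R 4.3.3, edgeR 4.0.16 and DESeq2 1.42.0.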

Additional observations from a re-analysis of the deposited data

How the results depend on the processing

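The median of 309 TPM became 383 TPM in the second table and 233 TPM from protein-coding transcripts alone, and 283 to 334.0 TPM with 1 library left out. The share of reads, 1.34% (1.29 to 1.39% by library), became 2.54% as a share of TPM, 1.52% with -ps pseudogenes added and 1.72% with all genes that share a window. Large minus small subunit was -0.37 in the second table, -0.42 with annotated lengths, -0.42 over genes at 1 TPM or more and -0.95 as a difference of means (-0.47 to -0.44 by library). Cytosolic minus mitochondrial was 4.77 with a pseudocount of 0.1, 4.73 in the second table, 4.54 with annotated lengths and 4.73 over genes at 1 TPM or more (4.64 to 4.68 by library). The share outside protein-coding transcripts was 30.9% in the second table and 19.1% by estimated reads (20.1 to 20.6% by library). The median log2 ratio was 0.044 with ERCC scaling, 0.12 without Rps12 and 0.13 with the genes that share a window, of which these last 2 and the share of 1.72% were chosen after seeing the data. From protein-coding transcripts alone 2 of the 77 genes were called (Rpl35 and Rps18), against 315 of all 10533 genes tested there. Calls numbered 1 at 1.5-fold (background 4.98%) and 42 by adjusted p alone (background 11.8% higher and 12.9% lower). Among 33 members given by the naming rule, the second table moved 16 by over 1.5-fold, and the posterior mean and annotated lengths moved none. No paired analysis was possible because the series has 1 group.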
